A study of Mus musculus with 8 samples.

Results

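The effect of a hairpin against Thbs2 that 2 separately made sets of mouse liver libraries have in common was measured over all 8 libraries of the series. Thbs2 knockdown livers (shThbs2) came from mice given an adeno-associated virus of serotype 6, labelled AAV6-CMV-shThbs2 (replicates 1 and 2) or AAV6-alphaSMA-shThbs2 (replicates 3 and 4). Control livers (NC) came from mice labelled AAV6-CMV-NC (replicates 1 and 2) or AAV6-alphaSMA-NC (replicates 3 and 4), so every animal, controls included, carried an AAV6 vector. That makes 4 shThbs2 livers against 4 NC livers, with 2 per group in each table. The CMV libraries were run on a HiSeq2500 and the αSMA libraries on a DNBSEQ-T7, by different providers, so what the provider, the sequencer and the vector each add cannot be told apart. The labels used here give no strain, sex, age, injury model or dose. The CMV promoter is active in many cell types, and the αSMA promoter in smooth muscle cells and activated stellate cells, while the RNA is from whole liver in both cases.

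The 2 deposited tables of FPKM (fragments scaled by transcript length and by mapped fragments of the library) share 17593 Ensembl genes, of which 10245 had a mean of at least 1 FPKM in each table. Of these 10245 genes, 2021 had both shThbs2 libraries on the same side of both NC libraries in the CMV table and on that same side in the αSMA table, 977 of them higher and 1044 lower (19.7% of the genes tested). These 2021 genes are called same-side genes here. They were chosen from the same FPKM values that the model below reads, so their number and direction are a description and carry no test.

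Thrombospondin-2 is a secreted matricellular glycoprotein that binds matrix proteins, metalloproteinases and cell surface receptors, and in injured liver it is made mainly by activated hepatic stellate cells. Stellate cells store vitamin A in the resting state and, when activated, become contractile myofibroblasts that deposit collagen. Most of the RNA of whole liver comes from hepatocytes, which make plasma proteins and bile acids and carry out amino acid, lipid and drug metabolism.

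Hepatocyte markers had the highest sum of any cell type list in every library. The 15 hepatocyte markers summed to between 65640 and 77310 FPKM in the αSMA shThbs2 livers and between 49800 and 63850 FPKM in their NC livers, and to between 65990 and 69080 FPKM in the CMV shThbs2 livers and between 82740 and 83980 FPKM in their NC livers. Of 17 lymphocyte markers only 2 reached the filter. FPKM sums were 1253737 and 1225210 in the αSMA shThbs2 libraries and 941530 and 924060 in the αSMA NC libraries, so that sum moved with the hairpin, while the CMV libraries lay between 491931 and 514641. CMV NC replicate 1 stood apart in genes of other tissues. The 15 of them in both tables, mainly globin genes by level, summed to 490.7 and 219.7 FPKM in the CMV shThbs2 livers, against 1929 and 343.9 FPKM in NC, and to 580.8 and 1247 FPKM in the αSMA shThbs2 livers, against 1391 and 1549 FPKM in NC. The part of blood in the results below was not tested. Depth is unknown because the values are FPKM.

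In a limma model of log2(FPKM + 1) with the table as a block and 1 shThbs2 effect, 1 of 10245 genes rose (0.00976% of the genes tested) and 0 fell (0%) at an adjusted p of 0.05. The gene that rose was Cox6a2. At an adjusted p of 0.1 there were 378 higher genes (3.69%) and 434 lower genes (4.24%), and at an unadjusted p of 0.05 there were 1253 higher (12.2%) and 1731 lower (16.9%). In this model a difference of effect between the tables counts as residual spread. When each table was given its own effect and the 2 effects were averaged, 1274 genes were called higher (12.4%) and 2140 lower (20.9%), but such an average can come from 1 table alone. The number of genes called was 0 to 3 when 1 library was left out.

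Same-side genes made up 9.54% of tested genes for the higher and 10.2% for the lower direction, and 1281 genes (12.5%) had groups that did not overlap in either table but lay on opposite sides. Taken singly, the CMV table had 24.7% of genes wholly above and 17.4% wholly below their controls, and the αSMA table had 27.3% above and 49.2% below. Across the 10245 genes, which are not independent replicates, the changes of the 2 tables correlated with Pearson's r of 0.154 and Spearman's rho of 0.232, and 55.8% of genes had the same sign. The median change of all tested genes was 0.03 in the CMV table, −0.20 in the αSMA table and −0.09 in the shared effect, on the log2(FPKM + 1) scale, so every shared value below is to be read against −0.09. The change was larger in the CMV than in the αSMA table for 17.4% of the higher and 13.6% of the lower same-side genes, beside 19.85% of all tested genes. Rescaling each library to the FPKM sum of its table turned the split of 977 higher and 1044 lower same-side genes into 552 higher and 1432 lower. The 2021 became 3815 without CMV NC replicate 1, 3033 without CMV NC replicate 2 and 3216 without CMV shThbs2 replicate 2, where a group of 1 library separates more easily.

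**Figure D1:**
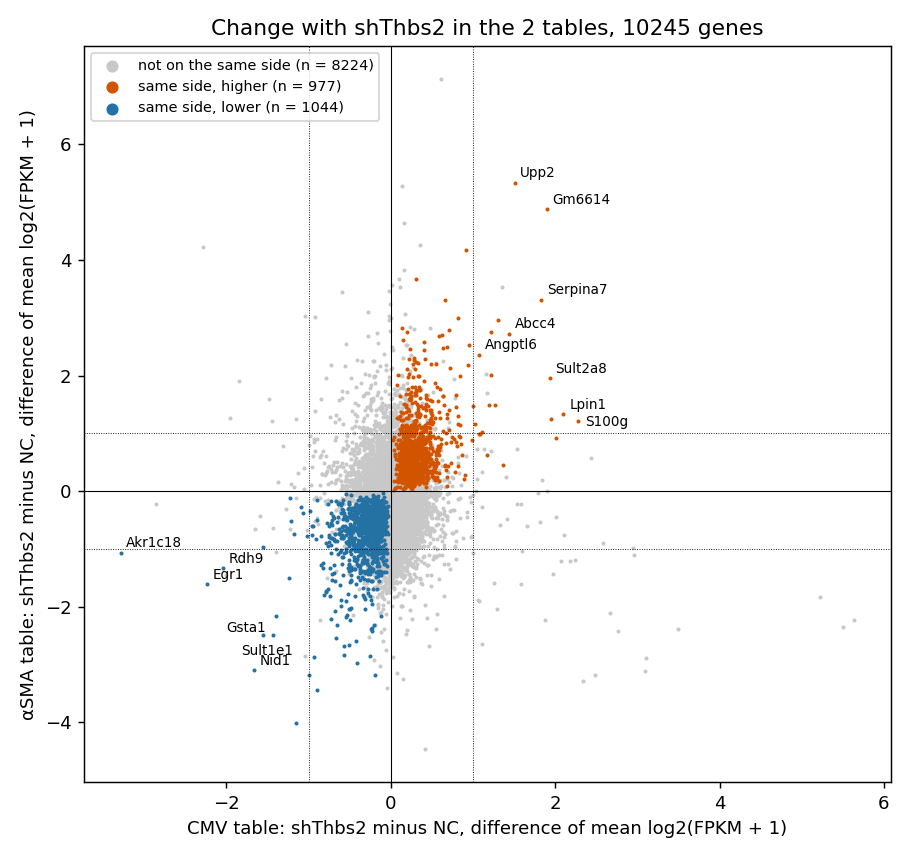
Change of each of 10245 genes in the CMV table (horizontal) and the αSMA table (vertical), as the difference of mean log2(FPKM + 1) between 2 shThbs2 and 2 NC libraries. Orange points are the 977 higher and blue points the 1044 lower same-side genes, and dotted lines mark a change of 1 in size, beyond which 16 higher and 9 lower same-side genes lie in both tables.

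The target itself lay below the filter in the CMV table and was taken from the same model over 15587 genes without a filter. Thbs2 measured 0.695 and 0.614 FPKM in the CMV shThbs2 livers and 1.27 and 0.922 FPKM in the CMV NC livers, which is 40.4% lower on average. The αSMA shThbs2 livers had 0.85 and 1.14 FPKM and the αSMA NC livers 1.37 and 1.47 FPKM, or 29.9% lower. All 4 knockdown libraries were below both controls of their table. The shared log2 change was −0.31 (SE 0.09, 95% confidence interval −0.52 to −0.10, limma adjusted p = 0.145). An exact permutation test stratified by table gave a two-sided p of 0.0556, the smallest that 36 assignments allow. Thbs2 therefore did not pass over all genes, and its change was −0.17 after median centring.

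The single gene past the threshold encodes the muscle isoform of subunit 6A of cytochrome c oxidase, the last enzyme of the respiratory chain. Cox6a2 had 2.06 and 1.92 FPKM in the CMV shThbs2 livers, against 0.450 and 0.380 FPKM in the CMV NC livers, and 3.03 and 2.88 FPKM in the αSMA shThbs2 livers, against 0.93 and 1.07 FPKM in the αSMA NC livers. It thus rose 4.81-fold and 2.96-fold on group means, from a low level, with a shared log2 change of 1.03 (SE 0.10, 95% confidence interval 0.80 to 1.27, limma adjusted p = 0.0384). With a pseudocount of 0.1 in place of 1, its limma adjusted p was 0.0532. Both CMV NC values lay under 1 FPKM, so Cox6a2 met the filter of the CMV table only through its shThbs2 libraries. The adjusted p lay between 0.0599 and 0.157 when any 1 library was left out, and was 0.0848 after a trend on transcript length was removed. Its effects in the tables differed by −0.10 (αSMA minus CMV, adjusted p = 0.713).

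Higher same-side genes were ranked by p if 1 group of each table had a mean of at least 5 FPKM, which is the shThbs2 group for a higher gene. None of the first 8 passed. Serpina7, which encodes thyroxine-binding globulin, had 163 and 167 FPKM in the CMV shThbs2 livers, against 34.8 and 59.8 FPKM in NC, and 586 and 765 FPKM in the αSMA shThbs2 livers, against 75.2 and 58.7 FPKM in NC. Its shared log2 change was 2.57 (SE 0.31, limma adjusted p = 0.0579). Eif4ebp3, a repressor of cap-dependent translation, was 2.45-fold higher with the CMV and 4.58-fold higher with the αSMA hairpin (shared 1.61, adjusted p = 0.0579). Angptl4, a secreted inhibitor of lipoprotein lipase, had 46.6 and 42.4 FPKM in the CMV shThbs2 livers, against 9.70 and 10.8 FPKM in NC, and 52.4 and 44.3 FPKM in the αSMA shThbs2 livers, against 26.5 and 23.3 FPKM in NC. The shared change of Angptl4 was 1.47 (SE 0.22, adjusted p = 0.0630). The same-side rule by which these 3 genes were chosen puts their knockdown values above every control of their table.

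The other genes of that rank were Sult2a8, a liver sulfotransferase (1.94, adjusted p = 0.0630), Tymp, thymidine phosphorylase (0.99), Angptl6, an angiopoietin-like secreted protein (1.72), Abcc4, a basolateral exporter of organic anions and bile acids (2.08), and Rsph3b, a radial spoke protein of cilia (0.89). Each of the last 4 had an adjusted p of 0.0630 as well. Sult2a8 had 213 and 153 FPKM in the CMV shThbs2 livers, against 64.2 and 33.7 FPKM in NC, and 166 and 73.1 FPKM in the αSMA shThbs2 livers, against 25.2 and 30.4 FPKM in NC. For Sult2a8 the changes of the tables were nearly equal, at 1.93 and 1.95.

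The lower same-side genes were ranked under the same cut of 5 FPKM, which a lower gene meets through its NC group in each table. Among them the smallest p belonged to a growth factor, a basement membrane protein and a transcription factor. Inhba, which encodes the βA chain of activin A, had 2.22 and 1.34 FPKM in the CMV shThbs2 livers, against 5.09 and 5.87 FPKM in NC, and 3.04 and 2.16 FPKM in the αSMA shThbs2 livers, against 7.90 and 10.6 FPKM in NC. It was 3.08-fold and 3.55-fold lower on group means (shared log2 change −1.37, SE 0.17, 95% confidence interval −1.75 to −0.99, limma adjusted p = 0.0579), and the difference between tables was −0.27 (adjusted p = 0.523). Nid1, nidogen-1, which links laminin to type IV collagen in basement membranes, had 3.24 and 3.68 FPKM in the CMV shThbs2 livers, against 9.50 and 18.0 FPKM in NC, and 3.47 and 5.34 FPKM in the αSMA shThbs2 livers, against 48.3 and 41.1 FPKM in NC (shared −2.38, SE 0.31, adjusted p = 0.0630). Egr1, an immediate early transcription factor, had 3.80 and 2.59 FPKM in the CMV shThbs2 livers, against 14.7 and 23.6 FPKM in NC, and 4.95 and 11.4 FPKM in the αSMA shThbs2 livers, against 24.6 and 26 FPKM in NC (shared −1.93, SE 0.27, adjusted p = 0.0630). The same-side rule puts all 4 knockdown livers below their controls for each of these genes, and αSMA replicate 4 kept the most Egr1.

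**Figure D2:**
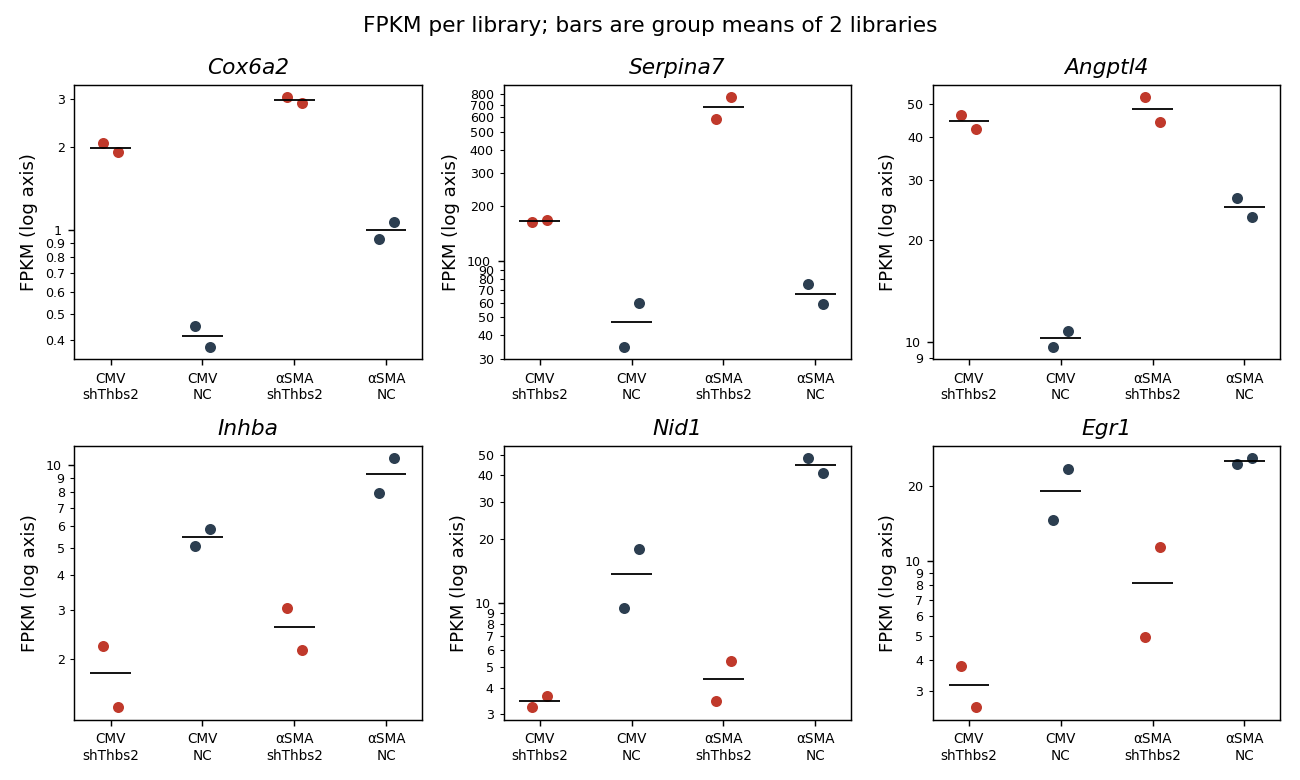
FPKM of Cox6a2, Serpina7, Angptl4, Inhba, Nid1 and Egr1 in each library on log axes, with shThbs2 (red) to the left of NC (dark) within each table and bars at the mean of 2 libraries. The red and dark points of a table do not overlap in any of the 6 panels, which the same-side rule fixed for every gene but Cox6a2. Their order is the same in both tables, and levels are not comparable between tables.

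The next lower genes were Rdh9, a short-chain dehydrogenase of the retinol dehydrogenase family (shared log2 change −1.69), Angptl8, a liver hormone that acts to inhibit lipoprotein lipase (−1.26), and Tagln2, the actin-binding protein transgelin-2 (−0.83), each with a limma adjusted p of 0.0630. Pla1a, a phosphatidylserine-specific phospholipase (−0.85), and Irgm2, an interferon-inducible GTPase (−1.04), had an adjusted p of 0.0756. Angptl8 had 76.5 and 53.7 FPKM in the CMV shThbs2 livers, against 192 and 188 FPKM in NC, and 29.8 and 20.6 FPKM in the αSMA shThbs2 livers, against 45.3 and 53.8 FPKM in NC. Angptl8 and Angptl4, both regulators of the same lipase, thus lay on opposite sides of their controls in both tables. Serpina7, Eif4ebp3, Inhba, Nid1, Egr1, Rdh9 and Angptl8 passed when each library was rescaled to the FPKM sum of its table (adjusted p 0.0336, 0.0336, 0.0336, 0.0455, 0.0336, 0.0336 and 0.0336). That scaling moved the median shared change of all tested genes to −0.23. Serpina7 and Inhba also passed with rescaling on nuclear genes (both 0.0495). None of these genes passed with median centring, quantile normalization or a replicate block.

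A log2(FPKM + 1) change of at least 1 in both tables was found for 16 higher genes (0.156% of those tested) and 9 lower genes (0.0878%). They are called 2-fold in both tables on this scale, which is stricter for low genes than a fold of FPKM. Cox6a2, at 0.98 in the αSMA table, is therefore not among them. With a pseudocount of 0.1 in place of 1 there were 26 and 20, and the total of 25 became 40 without CMV NC replicate 2. Besides genes already given, the higher ones were Upp2, Gm6614, Nudt7, Vmn2r3, S100g, Lpin1, Cyp2a5, Slc24a3, Igfbp1, Acaa1b and Atoh8. The lower ones include Akr1c18, Sult1e1, Gm3776 and Gsta1 beside Nid1, Egr1, Rdh9 and Inhba. All 25 had a limma adjusted p between 0.0579 and 0.0948.

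Upp2, uridine phosphorylase 2, had 122 and 92.3 FPKM in the CMV shThbs2 livers, against 76.5 and 17.3 FPKM in NC, and 143 and 66.4 FPKM in the αSMA shThbs2 livers, against 1.18 and 1.74 FPKM in NC. Its CMV controls lay far apart, with NC replicate 1 close to the knockdown, while in the αSMA table the knockdown mean was 71.8-fold higher. Lpin1, the phosphatidate phosphatase lipin-1, had 43.8 and 20.6 FPKM in the CMV shThbs2 livers, against 8.24 and 4.76 FPKM in NC, and 28.6 and 25.7 FPKM in the αSMA shThbs2 livers, against 13.2 and 7.81 FPKM in NC (shared 1.71, adjusted p = 0.0756). Nudt7, a peroxisomal coenzyme A diphosphatase, was 2.41-fold and 8.02-fold higher, and Acaa1b, a peroxisomal thiolase, 2.02-fold and 2.33-fold higher in the CMV and αSMA tables.

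Igfbp1, an insulin-repressed binding protein of insulin-like growth factors, had 465 and 323 FPKM in the CMV shThbs2 livers, against 132 and 214 FPKM in NC, and 397 and 1242 FPKM in the αSMA shThbs2 livers, against 309 and 199 FPKM in NC (shared 1.35, limma adjusted p = 0.0948). Much of its αSMA mean comes from replicate 4. Atoh8, a basic helix-loop-helix factor, was 2.14-fold and 2.06-fold higher, S100g, the calcium-binding calbindin-D9k, 4.77-fold and 2.49-fold, and Slc24a3, a sodium, potassium and calcium exchanger, 3.47-fold and 3.93-fold. Cyp2a5, a cytochrome P450 with a near-identical paralog, was 4.02-fold and 2.59-fold higher, so the split of reads between the copies is uncertain. That paralog, Cyp2a4, a female-biased gene, had 23.5 and 22.8 FPKM in the CMV shThbs2 livers, against 4.45 and 44.7 FPKM in NC, and 1457 and 971 FPKM in the αSMA shThbs2 livers, against 23.1 and 2.02 FPKM in NC. Gm6614 is a predicted gene and Vmn2r3 a member of the vomeronasal receptor family, and they were 5.68-fold and 3.28-fold higher in the CMV table.

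The lower genes include enzymes that act on steroids. Akr1c18, which inactivates progesterone, had 0.575 and 1.87 FPKM in the CMV shThbs2 livers, against 17.2 and 22.6 FPKM in NC, and 2.23 and 1.93 FPKM in the αSMA shThbs2 livers, against 6.40 and 4.58 FPKM in NC. Sult1e1, estrogen sulfotransferase, was 12.4-fold and 13.8-fold lower on group means, with αSMA NC replicate 3 at 17.9 FPKM and NC replicate 4 at 4.44 FPKM. Gsta1, an alpha-class glutathione transferase, was 2.84-fold and 3.70-fold lower and Gm3776, its neighbour on chromosome 9, 2.95-fold and 4.94-fold lower, and reads may be divided between such near copies.

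**Figure D3:**
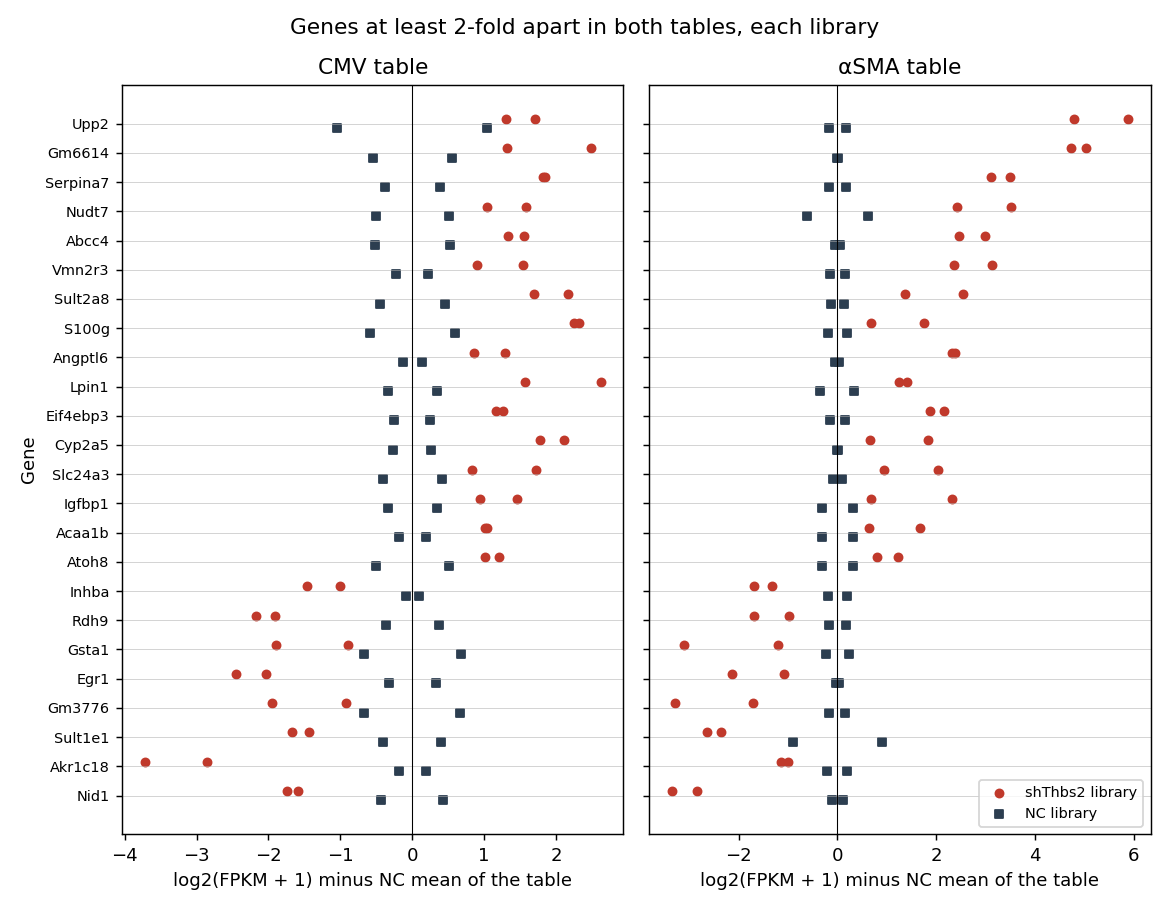
Values of 24 of the 25 genes with a log2(FPKM + 1) change of at least 1 in size in both tables, ordered by shared change from Upp2 at the top to Nid1 at the bottom. Each point is 1 library minus the mean of the 2 NC libraries of its table, with shThbs2 in red above NC in dark, and the NC pair of Upp2 spreads most widely in the CMV panel.

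RefSeq promoter windows (GRCm38.p6, 250 bases before to 50 after the gene start) were matched by symbol for 8188 of the 10245 tested genes and for 22 of the 25. Both strands were searched for TATAAA, the core of the TATA box, which places the transcription machinery on many tissue-specific promoters. It was found for 6 of the 22 (27.3%), 66 of 780 higher same-side genes (8.46%), 83 of 826 lower same-side genes and 740 of all 8188 (9.04%). In 4 of the 6 it began 27 or 29 bases before an annotated start, and these windows are shown for that position, 5′ to 3′ on the gene's strand with TATAAA in capitals.
Serpina7 (chrX:139085170-139085469, minus strand): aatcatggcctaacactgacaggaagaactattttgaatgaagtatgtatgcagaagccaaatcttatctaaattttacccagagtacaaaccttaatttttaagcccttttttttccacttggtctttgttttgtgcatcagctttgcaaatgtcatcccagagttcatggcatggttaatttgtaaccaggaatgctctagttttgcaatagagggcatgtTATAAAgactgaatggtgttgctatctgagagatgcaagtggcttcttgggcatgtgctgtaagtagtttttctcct
Upp2 (chr2:58754934-58755233, plus strand): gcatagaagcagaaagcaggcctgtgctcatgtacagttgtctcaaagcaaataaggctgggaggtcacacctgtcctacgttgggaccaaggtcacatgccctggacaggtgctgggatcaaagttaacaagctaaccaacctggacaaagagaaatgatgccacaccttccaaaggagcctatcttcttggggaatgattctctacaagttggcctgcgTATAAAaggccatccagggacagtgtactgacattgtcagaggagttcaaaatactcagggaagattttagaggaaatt
Cyp2a5 (chr7:26835089-26835388, plus strand): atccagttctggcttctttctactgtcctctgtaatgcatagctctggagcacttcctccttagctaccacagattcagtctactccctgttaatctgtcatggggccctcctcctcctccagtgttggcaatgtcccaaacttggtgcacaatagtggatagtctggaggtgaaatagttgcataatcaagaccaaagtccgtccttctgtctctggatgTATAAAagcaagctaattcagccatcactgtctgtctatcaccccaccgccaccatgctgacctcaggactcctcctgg
Sult2a8 (chr7:14438502-14438801, minus strand): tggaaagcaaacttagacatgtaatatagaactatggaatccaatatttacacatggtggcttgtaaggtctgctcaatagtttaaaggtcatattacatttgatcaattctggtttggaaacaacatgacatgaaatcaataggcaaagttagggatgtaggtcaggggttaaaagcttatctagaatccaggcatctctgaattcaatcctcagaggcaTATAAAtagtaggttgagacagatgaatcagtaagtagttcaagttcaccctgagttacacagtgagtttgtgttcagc

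These 4 genes, Serpina7, Upp2, Cyp2a5 and Sult2a8, were all higher with both hairpins, and a match of letters is a description of the window. The 6 also include S100g, a higher gene, and Inhba, a lower gene, with TATAAA 0 and 91 bases before the start. A second window of Sult2a8 had its match 223 bases before the start, on the other strand. The AP-1 letters TGAGTCA stood in 5.64% of higher and 5.08% of lower same-side promoters and 4.64% of all, the E-box CACGTG in 10.9%, 10.5% and 12.1%, and the forkhead letters GTAAACA in 39 of 780 higher, 25 of 826 lower and 276 of 8188 promoters, each on both strands. In the same order, the D-box TTATGTAA stood in 1.15%, 0.605% and 0.733%, the CRE TGACGTCA in 3.46%, 2.54% and 3.59%, and the EGR site GCGTGGGCG in 1.41%, 2.06% and 1.4%. Of the 22 genes 2-fold in both tables with a window, 2 had the D-box, 0 the CRE and 0 the EGR site.

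Of 13 tested genes of the myofibroblast contractile apparatus 9 were on the lower side in both tables and 0 on the higher side, beside 10.2% and 9.54% of all genes, and the median shared change was −0.66 (−0.51 in the CMV and −0.81 in the αSMA table). The counts of every list below are to be read beside these 2 shares. None passed singly. Acta2, which encodes αSMA itself, had 2.16 and 1.69 FPKM in the CMV shThbs2 livers, against 3.66 and 5.43 FPKM in NC, and 8.34 and 8.43 FPKM in the αSMA shThbs2 livers, against 14.4 and 17.1 FPKM in NC (shared −0.87, limma adjusted p = 0.0756). Tpm4, a tropomyosin (−0.70), and Vim, the intermediate filament vimentin (−0.66), both had an adjusted p of 0.0886. The count of 9 lower genes was the same under each of the 4 scalings and after removal of the length trend.

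Of 25 tested collagens and matrix glycoproteins 14 were lower and 0 higher on the same side, with a median shared change of −0.37 (−0.36 and −0.49 in the CMV and αSMA tables). Col1a1, a chain of type I collagen, had 8.42 and 6.05 FPKM in the CMV shThbs2 livers, against 10.1 and 11.2 FPKM in NC, and 4.4 and 5.45 FPKM in the αSMA shThbs2 livers, against 7.39 and 14.3 FPKM in NC (shared −0.72, 95% confidence interval −1.20 to −0.25, adjusted p = 0.0996). Col1a2 (−0.64, adjusted p = 0.0996) and Col3a1 of type III collagen (−0.58, adjusted p = 0.0980) were also lower in all 4 knockdown livers. Named as lower same-side genes were Sparc, a collagen-binding glycoprotein (−0.54, adjusted p = 0.0886), Fn1, fibronectin (−0.72, adjusted p = 0.0914), and Col4a2 of basement membranes (−0.61, adjusted p = 0.0976). The 14 became 11 with rescaling on nuclear genes, 10 with median centring or quantile normalization and 9 after removal of the length trend, and the median length of these transcripts is 5595 nt beside 3265 nt over all tested genes.

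Of 17 genes of matrix crosslinking and remodelling 7 were lower and 0 higher on the same side (median −0.28), and 4 were lower after median centring, quantile normalization or removal of the length trend. They include Tgm2, transglutaminase 2 (−0.98, adjusted p = 0.0756), Mmp14, a membrane-bound metalloproteinase (−1.27, adjusted p = 0.0886), and Loxl2, a lysyl oxidase-like enzyme (−0.60, adjusted p = 0.0948). Mmp14 had 11.7 and 13.3 FPKM in the CMV shThbs2 livers, against 18.9 and 26.5 FPKM in NC, and 8.50 and 16.7 FPKM in the αSMA shThbs2 livers, against 41.9 and 43.3 FPKM in NC. Timp1 did not reach the filter in both tables and was not tested.

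Of 17 tested stellate cell markers 3 were lower and 1 higher on the same side, with a median shared change of −0.13 beside −0.09 over all genes. Hgf, hepatocyte growth factor, had 1.16 and 1.34 FPKM in the CMV shThbs2 livers, against 2.28 and 1.90 FPKM in NC, and 3.83 and 5.55 FPKM in the αSMA shThbs2 livers, against 7.79 and 8.42 FPKM in NC (−0.58, adjusted p = 0.0917). Pdgfrb, the PDGF receptor β (−0.39, adjusted p = 0.122), and Des, desmin (−0.29, adjusted p = 0.142), were lower by less, and the 1 higher member was Angptl6. In bulk liver, fewer cells of a type and less RNA per cell cannot be told apart.

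Of 15 TGF-β signalling genes 5 were lower and 0 higher on the same side (median −0.37, with −0.08 in the CMV and −0.67 in the αSMA table). Besides Inhba these include Tgfbr2, the type II receptor (−0.74, adjusted p = 0.0914), and Tgfbi, a secreted matrix protein induced by TGF-β (−0.51, adjusted p = 0.0980). Tgfb1, the ligand, had 4.69 and 4.62 FPKM in the CMV shThbs2 livers, against 4.83 and 4.81 FPKM in NC, and 4.27 and 4.92 FPKM in the αSMA shThbs2 livers, against 11.55 and 10.04 FPKM in NC. Tgfb1 was therefore a same-side gene with a change of −0.04 in the CMV table, and its effects differed between tables by −1.03 (adjusted p = 0.0102).

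Immediate early genes, which are switched on within minutes of growth factor or stress signals, were lower on the same side for 7 of 18 tested and higher for 0 (median −0.61). Jun had 17.1 and 10.8 FPKM in the CMV shThbs2 livers, against 24.2 and 21 FPKM in NC, and 14.6 and 15.3 FPKM in the αSMA shThbs2 livers, against 35.8 and 47.9 FPKM in NC (−1.05, limma adjusted p = 0.0886). Fos, its partner in AP-1, was at 1.49 and 0.732 FPKM in the CMV shThbs2 livers, against 2.98 and 2.22 FPKM in NC, and at 1.56 and 4.85 FPKM in the αSMA shThbs2 livers, against 6.92 and 5.58 FPKM in NC (−0.84, adjusted p = 0.102). Of the AP-1 and Egr genes named, αSMA shThbs2 replicate 4 had the highest knockdown value for Egr1 and Fos.

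Of 15 tested monocyte, neutrophil and scar macrophage genes 6 were lower and 0 higher on the same side (median −0.71), and the list summed to 383 and 408 FPKM in the CMV shThbs2 livers, against 569 and 461 FPKM in NC, and to 610 and 764 FPKM in the αSMA shThbs2 livers, against 1196 and 1358 FPKM in NC. Ccr2, the receptor that draws monocytes into tissue, had 0.712 and 0.934 FPKM in the CMV shThbs2 livers, against 1.83 and 1.61 FPKM in NC, and 2.49 and 2.87 FPKM in the αSMA shThbs2 livers, against 7.82 and 6.41 FPKM in NC (−0.86, adjusted p = 0.0886). Chil3, a chitinase-like protein of myeloid cells (−1.90, adjusted p = 0.0886), and Cd9, a tetraspanin that scar macrophages carry (−0.82, adjusted p = 0.0886), were also among the 6. Cx3cr1, a chemokine receptor, Fn1 and Spp1 complete the 6, and the last pair also stand in the matrix and bile duct lists. Of 14 markers of resident Kupffer cells 1 was lower and 0 higher (median −0.08), and that 1 was Adgre1, the F4/80 antigen (−0.68, adjusted p = 0.0965). Of 14 endothelial markers 1 was lower (Pecam1, −0.51, adjusted p = 0.0980) and 0 were higher (median −0.15), with 4 lower after rescaling to the FPKM sum. How far the myeloid markers account for the lower matrix or contractile values was not tested.

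Of 6 cholangiocyte markers 3 were lower and 0 higher on the same side (median −0.59), among them Spp1, osteopontin, which myeloid cells also make (−0.76, adjusted p = 0.0976), and Sox9, a transcription factor of bile duct cells (−1.26, adjusted p = 0.107). Sox9 had 3.01 and 2.20 FPKM in the CMV shThbs2 livers, against 3.18 and 3.05 FPKM in NC, so nearly all of its shared value lies in the αSMA table, where it was 8.03-fold lower.

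**Figure D4:**
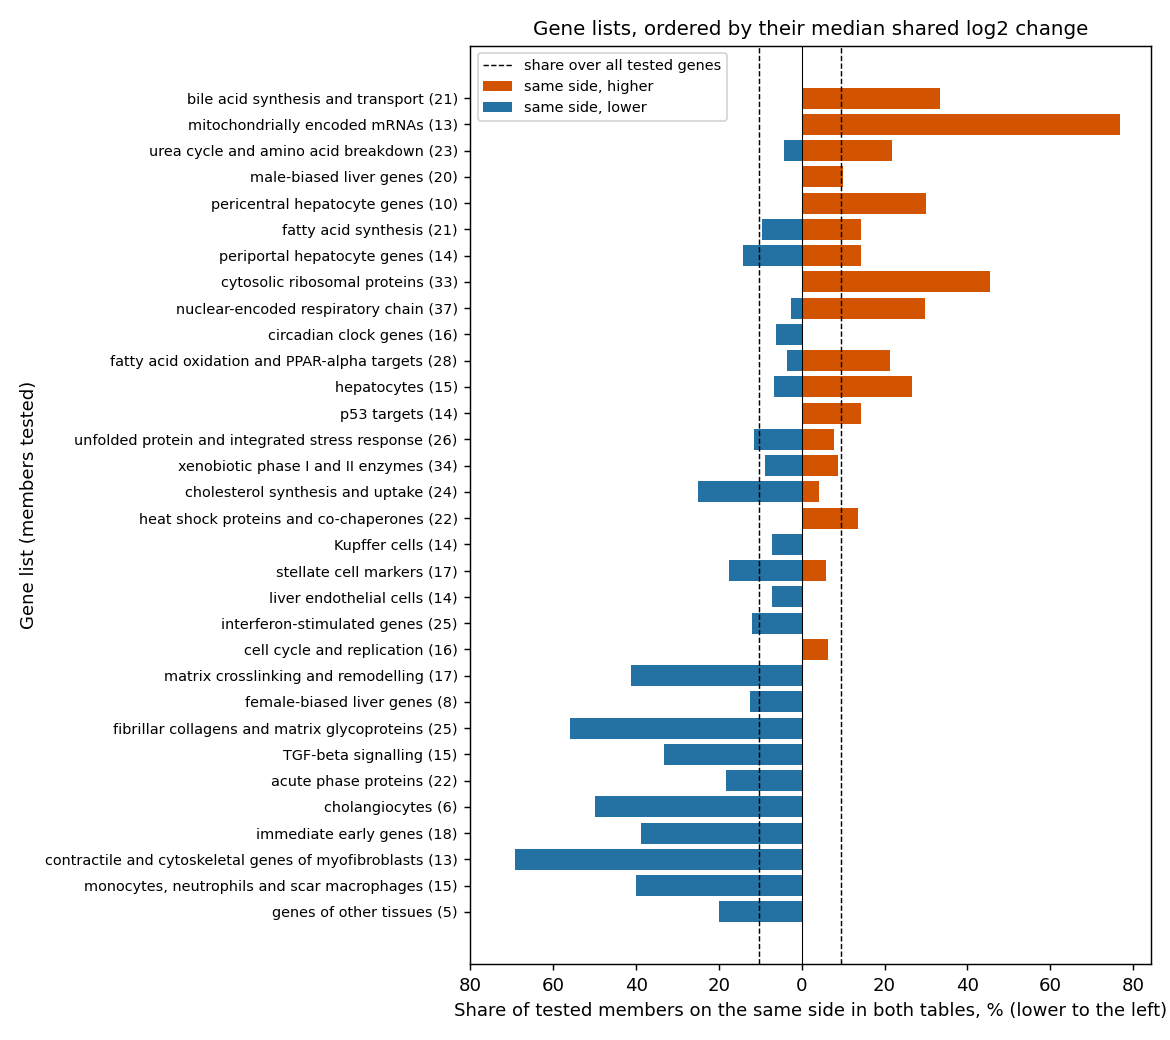
Share of tested members of each list that were on the same side in both tables, higher to the right in orange and lower to the left in blue, for lists with at least 5 tested members. Dashed lines mark the shares over all tested genes, 9.54% higher and 10.2% lower, and the lists are ordered by median shared log2 change, with bile acid genes at the top and genes of other tissues at the bottom.

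On the higher side were genes of bile acid synthesis and transport. Of 21 tested 7 were higher and 0 lower on the same side, with a median shared change of 0.73 (0.21 in the CMV and 1.00 in the αSMA table). Cyp27a1, the sterol 27-hydroxylase of the alternative pathway, had 170 and 168 FPKM in the CMV shThbs2 livers, against 128 and 87.9 FPKM in NC, and 235 and 162 FPKM in the αSMA shThbs2 livers, against 89.7 and 105 FPKM in NC (shared 0.83, limma adjusted p = 0.0886). Slco1b2, an uptake transporter for organic anions, was 1.47-fold and 4.73-fold higher (shared 1.38, adjusted p = 0.0886), and Baat, which conjugates bile acids to amino acids, 1.32-fold and 5.61-fold higher (shared 1.42, adjusted p = 0.0960). The number on the higher side was 6 or 7 under every scaling.

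Of 23 genes that break down amino acids or form urea, 5 were higher and 1 lower on the same side (median 0.55, with 0.22 and 0.87 in the CMV and αSMA tables), and 2 were higher and 2 lower after quantile normalization. Cth, cystathionine γ-lyase, had 312 and 433 FPKM in the CMV shThbs2 livers, against 257 and 234 FPKM in NC, and 320 and 369 FPKM in the αSMA shThbs2 livers, against 48.1 and 57.8 FPKM in NC (1.63, adjusted p = 0.0914). Asl, argininosuccinate lyase (1.05, adjusted p = 0.0958), and Hpd of tyrosine breakdown (0.90, adjusted p = 0.0980) were also among the 5 higher same-side genes. Of 10 pericentral genes 3 were higher and 0 lower (median 0.45). Cyp2e1, a pericentral cytochrome P450, was 1.72-fold and 1.82-fold higher, with 623 and 750 FPKM in the CMV shThbs2 livers, against 340 and 460 FPKM in NC, and 673 and 872 FPKM in the αSMA shThbs2 livers, against 400 and 447 FPKM in NC (0.82, adjusted p = 0.0886). Rhbg, an ammonium transporter, was the third (0.80, adjusted p = 0.0906). Of 14 periportal genes 2 were higher and 2 lower (median 0.33), with Hal, histidine ammonia lyase, at 0.45 (adjusted p = 0.104) and Cdh1, E-cadherin, at −1.48 (adjusted p = 0.0886).

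Genes of fat metabolism lay on both sides. Of 28 genes that burn fatty acids or are PPARα targets, 6 lay on the same higher side and 1 on the lower, with a median shared change of 0.08 that became −0.08 when libraries were rescaled to the FPKM sum. Acaa1a, a peroxisomal thiolase (0.56, adjusted p = 0.0948), was among the 6 higher same-side genes beside Angptl4 and Acaa1b. Of 21 fatty acid synthesis genes 3 were higher and 2 lower, with medians of −0.20 in the CMV and 0.73 in the αSMA table. Me1, malic enzyme, which supplies NADPH, was 1.48-fold and 1.56-fold higher (0.60, adjusted p = 0.0886), while Dgat2, which makes triglycerides, was lower (−0.66, adjusted p = 0.105). Of 24 cholesterol genes 6 were lower and 1 higher on the same side, but 1 lower and 2 higher after median centring. Their medians were opposed, at −0.31 in the CMV and 0.34 in the αSMA table.

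Detoxification genes were split evenly, with 3 of 34 higher and 3 lower on the same side (median −0.01), but 5 lower with rescaling to the FPKM sum or quantile normalization. The counts of 3 lie near the shares over all tested genes, 9.54% higher and 10.2% lower. Ugt1a1, the bilirubin glucuronosyltransferase, was 1.46-fold and 1.88-fold higher (0.73, adjusted p = 0.0886), and Nqo1, a quinone reductase and Nrf2 target, 1.78-fold and 1.85-fold lower (−0.76, adjusted p = 0.0886). Of 22 acute phase genes 4 were lower and 0 higher (medians 0.06 in the CMV and −0.87 in the αSMA table). Serpina3m, one of a cluster of near-identical antiproteases, was at −1.26 (adjusted p = 0.0886), Il1rn, the interleukin-1 receptor antagonist, at −1.69 (adjusted p = 0.0976) and Serpina3n at −0.50 (adjusted p = 0.109).

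Of 13 tested transcripts of the mitochondrial genome 10 were higher in all 4 knockdown livers and 0 lower (median 0.70, with 0.21 in the CMV and 1.32 in the αSMA table), and these 13 took 14.8% and 15.8% of the FPKM sum in the CMV shThbs2 libraries, against 13.3% and 13.9% in NC, and 22.7% and 24.3% in the αSMA shThbs2 libraries, against 11.6% and 11.6% in NC. mt-Nd3, a subunit of complex I, had 657 and 854 FPKM in the CMV shThbs2 livers, against 566 and 550 FPKM in NC, and 13601 and 13712 FPKM in the αSMA shThbs2 livers, against 4176 and 4402 FPKM in NC (1.05, limma adjusted p = 0.0916). The 10 became 9 with each of the other scalings but 6 with quantile normalization and 4 after removal of the length trend.

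Ribosomal and respiratory chain genes of the nucleus were more often on the higher than on the lower side. Of 33 cytosolic ribosomal protein genes 15 were higher and 0 lower on the same side (median 0.23), and of 37 nuclear respiratory chain genes 11 were higher and 1 lower (median 0.20). Rplp1, a protein of the ribosomal stalk, had 724 and 720 FPKM in the CMV shThbs2 livers, against 580 and 590 FPKM in NC, and was 1.62-fold higher in the αSMA table (shared 0.49, adjusted p = 0.101). Ndufs7, a complex I subunit, was 1.43-fold and 1.70-fold higher (0.63, adjusted p = 0.0886), and Sdhb of complex II was at 0.74 (adjusted p = 0.0996). The median longest transcript is 1120 nt for the ribosomal list and 1445 nt for the respiratory list, beside 3265 nt over all tested genes. The counts were 6 and 4 with rescaling to the FPKM sum, 10 and 6 with quantile normalization and 7 and 6 with the length trend removed, and 23 and 11 with median centring.

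Transcript length moved with the change in both tables. In the 1026 genes with the shortest transcripts, up to 1377 nt, the median change was 0.12 in the CMV and 0.21 in the αSMA table, and in the 1025 genes with the longest, from 6547 nt, it was −0.004 and −0.40. The share of higher same-side genes was 21.9% in the shortest and 3.71% in the longest of these bins, and that of lower ones 4.97% and 13.1%. The median longest transcript was 2404 nt for higher and 3624 nt for lower same-side genes. The part of length in any group above was not tested beyond the counts given with the trend removed, where same-side genes numbered 1057 higher and 1022 lower.

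**Figure D5:**
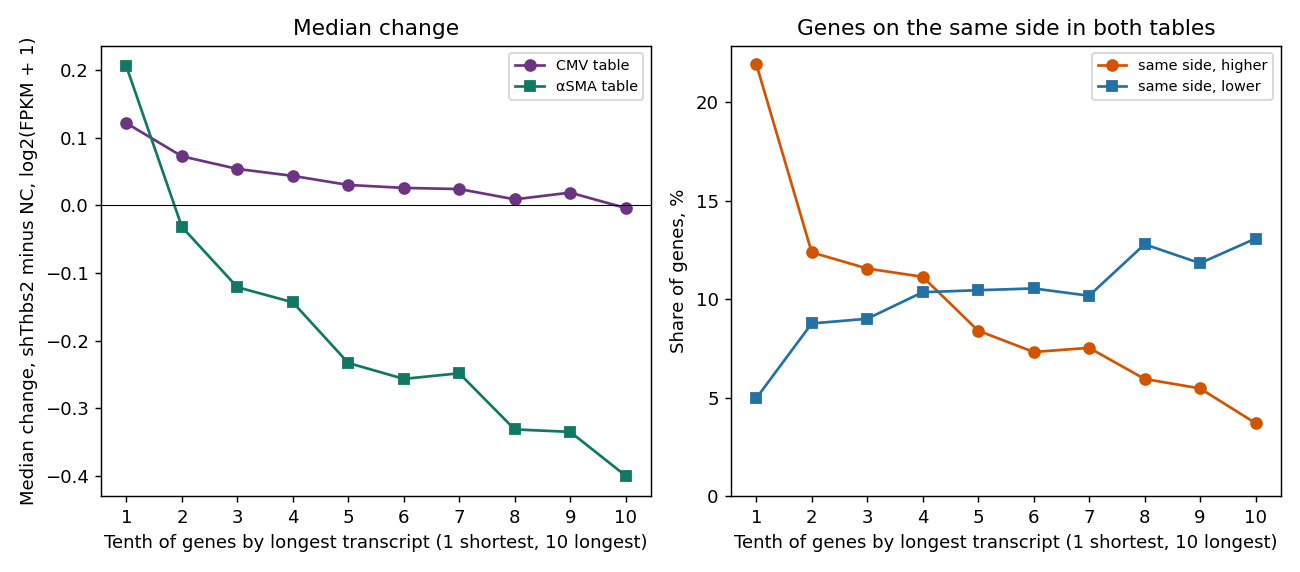
Genes in 10 bins by their longest annotated transcript, from the shortest (1) to the longest (10). The left panel gives the median shThbs2 minus NC change in each table, from 0.12 and 0.21 at the short end to −0.004 and −0.40 at the long end of the CMV and αSMA lines, and the right panel the share of genes on the same side in both tables, with higher genes falling and lower genes rising along the axis.

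Stress, interferon, clock and growth lists had at most 3 members on a side with the values as deposited. Over all tested genes 9.54% were higher and 10.2% lower on the same side, and the counts of these lists differ from those shares by few genes. Of 22 heat shock genes 3 were higher and 0 lower, with Hspb8, a small heat shock protein, 1.49-fold and 1.40-fold higher (0.53, limma adjusted p = 0.0886) and Hspe1, the mitochondrial co-chaperonin, at 0.39 (adjusted p = 0.106). The medians of the 22 were opposed, at 0.28 in the CMV and −0.55 in the αSMA table, and 13 of their shared changes were negative. Of 26 genes of the unfolded protein and integrated stress response 2 were higher and 3 lower. Ddit4, an mTORC1 inhibitor induced by stress and glucocorticoids, had 30.2 and 33.8 FPKM in the CMV shThbs2 livers, against 12.0 and 17.8 FPKM in NC, and 24.6 and 31.3 FPKM in the αSMA shThbs2 livers, against 11.3 and 16.0 FPKM in NC (1.03, adjusted p = 0.0756), with a difference between tables of −0.08 (adjusted p = 0.859). Phgdh, the first enzyme of serine synthesis, was at −1.58 (adjusted p = 0.0976).

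Of 25 interferon-stimulated genes 3 were lower and 0 higher (Rsad2 at −0.60, adjusted p = 0.136, and Oas1a at −0.36, adjusted p = 0.149, among them), of 16 clock genes 1 lower (Cry2, −0.40, adjusted p = 0.116) and 0 higher, and of 16 cell cycle genes 1 higher (Cdk1, 0.42, adjusted p = 0.120) and 0 lower. Of 14 p53 targets 2 were higher and 0 lower (median 0.03, but 0.35 in the CMV and −0.37 in the αSMA table), and 4 were higher after median centring. Of 15 hepatocyte markers 4 were higher and 1 lower (median 0.05), but 1 and 1 after quantile normalization (median −0.02). Apoa2 (0.94, adjusted p = 0.0980) and Pck1 (0.59, adjusted p = 0.105) were among the 4 higher, but the shared change was positive for 8 and negative for 7 of the 15. Of 20 male-biased genes 2 were higher and 0 lower, with medians of 1.28 in the CMV and −1.10 in the αSMA table, and of 8 female-biased genes 1 was lower and 0 higher, with medians of −1.03 and 0.20. The 21 female-biased genes in both tables summed to 1544 and 1112 FPKM in the αSMA shThbs2 livers, against 102.8 and 45.95 FPKM in NC, but to 64.41 and 82.5 FPKM in the CMV shThbs2 livers, against 91.7 and 157.5 FPKM in NC. Most of the αSMA shThbs2 sums came from Cyp2a4 alone, whose FPKM are given above with the uncertain split of reads from Cyp2a5. Of 5 tested genes of other tissues 1 was lower, the fatty acid binding protein Fabp4 (−0.83, adjusted p = 0.0948), and 0 were higher.

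Whether 1 effect describes both tables was tested for every gene by the difference of the 2 effects. That difference passed an adjusted p of 0.05 for 2571 of 10245 genes (25.1%), for 193 of the 977 higher (19.8%) and for 211 of the 1044 lower same-side genes (20.2%), which the rule that chose them bears on. The 2571 became 1533 without CMV NC replicate 1, 1092 without CMV shThbs2 replicate 1, 900 without CMV shThbs2 replicate 2, 1378 without αSMA NC replicate 3, 745 without αSMA NC replicate 4 and 1635 without αSMA shThbs2 replicate 3. Analysed alone, the CMV libraries had 3 genes called higher (0.0293%) and 1 lower (0.00976%), and the αSMA libraries had 1536 higher (15%) and 3087 lower (30.1%). Of these, 2 genes were called in both in the same direction.

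The same-side rule has no margin, so some members are separated by little. Just inside it, Gstcd had 1.41 and 1.20 FPKM in the CMV shThbs2 livers, against 1.41 and 1.56 FPKM in NC, where the nearest values agree to 3 digits. Just outside it, Tmem71 had 2.94 and 2.80 FPKM in the αSMA shThbs2 livers, against 2.94 and 3.27 FPKM in NC.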

How the data were processed

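Whole-liver poly(A) RNA of 8 mice was measured in 2 tables of 4 libraries. The values are FPKM as deposited by the authors, 1 table per vector, normalized separately, with HISAT, Cufflinks, HISAT2 2.1.0, Bowtie2 2.3.5 and GRCm38 named in the submitters' processing notes in no stated role. Counts were not used here, so library depth stays unknown and counting error has no interval. Libraries were taken as 1 animal each, otherwise p-values measure only their spread.

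The tables were joined on Ensembl ID without version (17593 IDs), and symbols, coordinates and transcript lengths were taken from GENCODE M21. Genes with a mean of at least 1 FPKM in each table were fitted on log2(FPKM + 1), which understates changes of low genes, with limma 3.58.1 in R 4.3.3 (table as a block, 1 shThbs2 effect, 5 residual degrees of freedom, two-sided tests, empirical Bayes with a trend on intensity). A second model with a mean per group gave the difference between tables. P-values were adjusted over all genes by Benjamini and Hochberg. The fit was run on simulated data with changes equal in both tables or in the αSMA table alone. That run does not bear on the number of genes called here. Lists were described by counts, with no set test.

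The same-side rule, the members and the 33 lists were chosen with earlier results of these data known. Named genes were Thbs2, fibrosis genes, the called gene, the 8 same-side genes per direction with the smallest p and at least 5 FPKM (since fewer than 5 passed), genes 2-fold in both tables, same-side genes among the 4 smallest p of a list, those nearest the rule's limit and the 4 whose effects differ most. The cut of 5 FPKM was on the higher group mean of each table, so it depends on the direction of change. Some genes that these rules name are not reported here. Promoters and motifs were chosen after values were seen. Alternatives were a pseudocount of 0.1, no filter, 5 FPKM, 4 scalings, other empirical Bayes settings, a replicate block, separate effects, each table alone, each library left out and, chosen after seeing the data, removal of a lowess trend on transcript length.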

Additional observations from a re-analysis of the deposited data

Results flagged for a closer look

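Among the genes named for rank, size or difference, these had effects that differed between the tables (limma model with a mean per group, αSMA minus CMV change on log2(FPKM + 1), adjusted p under 0.05). All lie on the same side in both tables, so the difference is one of size.

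Effects were larger in the αSMA table for Upp2 (difference 3.83, adjusted p = 0.0155), Plscr2, a phospholipid scramblase (3.36, adjusted p = 0.000382), Gm6614 (2.98, adjusted p = 0.0110), Mtln, mitoregulin (2.48, adjusted p = 0.000922), Vmn2r3 (1.53, adjusted p = 0.0329), Serpina7 (1.48, adjusted p = 0.0213) and Angptl6 (1.28, adjusted p = 0.0107), all higher with the hairpin. They were also larger there for Serinc5 (−2.997, adjusted p = 0.000691), Ankrd50 (−2.04, adjusted p = 0.00171) and Nid1 (−1.43, adjusted p = 0.0308), all lower with the hairpin. Plscr2 had 45.9 and 49.4 FPKM in the αSMA shThbs2 livers, against 2.97 and 2.70 FPKM in NC, but 19.7 and 17.2 FPKM in the CMV shThbs2 livers, against 15.9 and 13.6 FPKM in NC. Serinc5 had 7.46 and 9.40 FPKM in the αSMA shThbs2 livers, against 82.7 and 86.3 FPKM in NC, and 4.29 and 5.13 FPKM in the CMV shThbs2 livers, against 5.77 and 5.24 FPKM in NC.

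The larger effect lay in the CMV table for 2 of these genes, Akr1c18, lower by more there (2.22, adjusted p = 0.00844), and Angptl4, higher by more there (−1.09, adjusted p = 0.0105). Over all tested genes the CMV change was the larger for 19.85%, so a larger αSMA change is not particular to the genes listed. For these differences the provider, the sequencer and the vector cannot be told apart.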

How the results depend on the processing

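The number of genes with a shared effect (1) was 0 with a pseudocount of 0.1, a mean of at least 5 FPKM, no intensity trend, a replicate block or the length trend removed, 3 with rescaling on nuclear genes, 8 with rescaling to the FPKM sum, 3414 with separate effects averaged, 4 in the CMV table alone, 4623 in the αSMA table alone and 0 to 3 with 1 library left out. Same-side genes (2021) numbered 1260 at 5 FPKM and 2213 to 3815 with 1 library left out. Genes at least 2-fold in both tables (25) numbered 46 with a pseudocount of 0.1 and 25 to 40 with 1 library left out. Genes whose effect differs (2571) numbered 1659 at 5 FPKM, 3897 with rescaling to the FPKM sum and 745 to 3183 with 1 library left out. The Thbs2 change was −0.31 with separate effects averaged, where it passed (limma adjusted p = 0.0442), and −0.36 to −0.26 with 1 library left out, and its alternatives ranged from 0.0442 to 0.537 in adjusted p. At 5 FPKM it had no value. The cause was not tested for any of these. Fewer genes entered at 5 FPKM, and fewer libraries when 1 was left out, where a lone library was assumed to vary like the other groups. Over 116 named genes, 2520 values under alternatives kept their direction. Most of these genes were chosen as same-side genes, and for those, leaving out 1 library or taking 1 table alone cannot reverse the direction. Of the 2520 values, 2280 also kept their side of the threshold, 227 passed and 13, all of Cox6a2, no longer passed.

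Same-numbered libraries deviated together with a correlation across genes of 0.0600 in the CMV and 0.00169 in the αSMA table. With 2 libraries per group, this correlation cannot decide whether the numbers pair the samples. With the replicate block 0 genes had a shared effect, Cox6a2 had an adjusted p of 0.242, and 2224 genes differed between tables.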
